A study of Homo sapiens with 5 samples.

Results

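The genes described here are 34 heat shock proteins, their cochaperones and the heat shock factors. They were measured in C4-2B cells, a bone-seeking subline of LNCaP prostate cancer cells. The list was chosen with earlier results of these data known, so its shares below are not those of an independent list. HSPA1A and HSPA1B share their probe sets and stand as 1 unit, HSPA1A/HSPA1B, so the list holds 33 units. On the Affymetrix human genome array 19777 genes had a probe set that could be named here, among them 31 of these units, while AHSA1 and HSF2 were not analysed here. Each unit was read from the brightest of its probe sets on average. CRYAB, a small heat shock protein, lay under the floor described below on all 5 arrays, which leaves 30 units measured in every comparison.

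Total RNA was hybridised to 5 arrays, 1 for each condition. The treated cells received 25 µM BR-DIM (written B-DIM in the labels), a formulated 3,3′-diindolylmethane, for 6 h or 48 h, or 25 µM of the soy isoflavone mixture G2535 for 6 h or 72 h, a dose that counts genistein only. Control cells received 0.1% DMSO, and the length of that culture is not stated. All cells grew in serum-containing medium. Because each condition had 1 array, no value below has a replicate spread or a p-value, and each comparison describes these arrays.

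Chaperones of the HSP70 family bind unfolded stretches of protein and release them in a cycle driven by ATP. J-domain proteins of the HSP40 family deliver clients to HSP70 and start the ATP step, while HSP110 and BAG proteins exchange the nucleotide. HSP90 takes over clients such as steroid hormone receptors and kinases, with cochaperones that pass clients on or pace its cycle. The transcription factor HSF1 induces many of these genes when proteins unfold, and the androgen receptor of prostate cells is a textbook client of both HSP70 and HSP90.

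The values are the authors' array signals, on a linear intensity scale, with trimmed means from 498.1 to 498.4 on the 5 arrays. Signals under 97.1, the median of all signals, were raised to that floor, and 2-fold or more counted as changed. Housekeeping genes had median log2 ratios to the control from 0.07 to 0.26 on the 4 treated arrays, with 0 of 9 past 2-fold. Of 14 luminal and epithelial genes with a probe set, which mark C4-2B cells as prostate epithelium, all 14 lay above the floor after 6 h of BR-DIM and after 72 h of isoflavone, and 13 in the control. Only 7 did after 48 h of BR-DIM and 6 after 6 h of isoflavone, and the summed signal of the list was 3123 and 2444 there, against 19527 in the control. It was 18119 after 6 h of BR-DIM and 21786 after 72 h of isoflavone. The arrays of BR-DIM at 48 h and of isoflavone at 6 h thus stood apart. The sum hides single genes, since on isoflavone 72 h 3 of the 14 (KLK3, KLK2 and KLK4) were at least 2-fold lower than in the control. There 1, STEAP2, was at least 2-fold higher. Of 6 macrophage and osteoclast genes, 1 or 2 lay above the floor on each array, and the sum over these genes ran from 226 to 403. Of 9 osteoblast and fibroblast genes 2 to 4 did, with sums from 996 to 2144.

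Among the chaperone genes, lower values were more frequent than higher ones on every treated array. On BR-DIM 6 h, 4 of 30 units were at least 2-fold lower, which is 13.3%, against 0.814% of all 13022 genes measured, and 0 were at least 2-fold higher, against 2.86%. The 4 were HSPA1A/HSPA1B, DNAJB1, DNAJA1 and CHORDC1. On BR-DIM 48 h, 4 of 30 were at least 2-fold lower (13.3%, against 3.87% of all genes), namely DNAJA1, STIP1, HSPE1 and HSPB1, and 0 were higher, against 5.33%. Isoflavone 6 h had 1 lower unit, HSPB1 (3.33%, against 3.82% of all genes), and 0 higher, against 1.18%. Isoflavone 72 h had 2 lower, STIP1 and DNAJB1 (6.67%, against 2.06%), and 1 higher, DNAJA2 (3.33%, against 4.80%). The share on isoflavone 6 h was thus close to that of all genes. On the arrays low in luminal genes the counts without HSPB1 were 3 (BR-DIM 48 h) and 0 (isoflavone 6 h). A gene less than 2-fold above the floor in the control could not be called lower, yet it counted among all genes measured. All 30 units had control signals of at least 489.9, so each could be called lower. The shares of all genes here and below are thus not matched to the units in brightness.

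Smaller differences leaned the same way. On BR-DIM 6 h 22 of 30 units lay below the control (73.3%, against 42.8% of all genes), while 25 did after 48 h of it (83.3%, against 45.5%). On isoflavone 6 h 20 lay below it (66.7%, against 49.6%), and on isoflavone 72 h 23 (76.7%, against 45.7%). The median log2 ratio of the chaperone genes was -0.22 after 6 h and -0.24 after 48 h of BR-DIM, against 0.07 and 0.06 over all genes. After 6 h and 72 h of isoflavone it was -0.25 and -0.43, against 0.00 and 0.05 over all genes. All 4 comparisons divide by the same control array, so they are not independent of each other. The values over all genes were again not matched to the units in brightness. Despite near-equal trimmed means, the median signal of all probe sets was 109 on BR-DIM 6 h against 94.9 in the control.

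**Figure D1:**
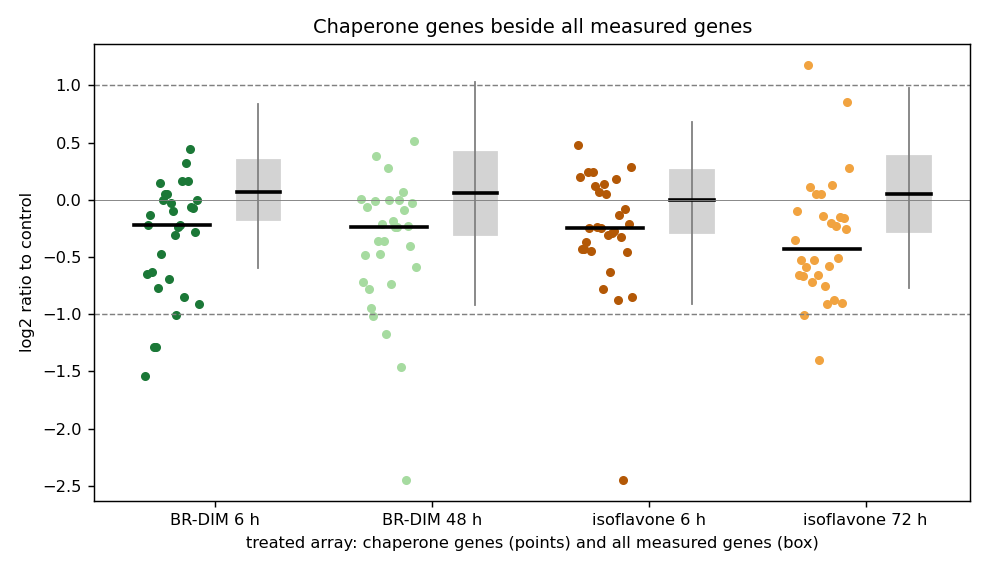
Log2 ratio to the control (vertical axis) of the 30 measured chaperone units (coloured points, with their median as a black bar) and of all measured genes (grey box from the 25th to the 75th percentile, line from the 5th to the 95th, median as a black bar) on each treated array; dashed lines mark 2-fold. The chaperone medians lie at -0.22, -0.24, -0.25 and -0.43, below those of all genes on each array.

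**Figure D2:**
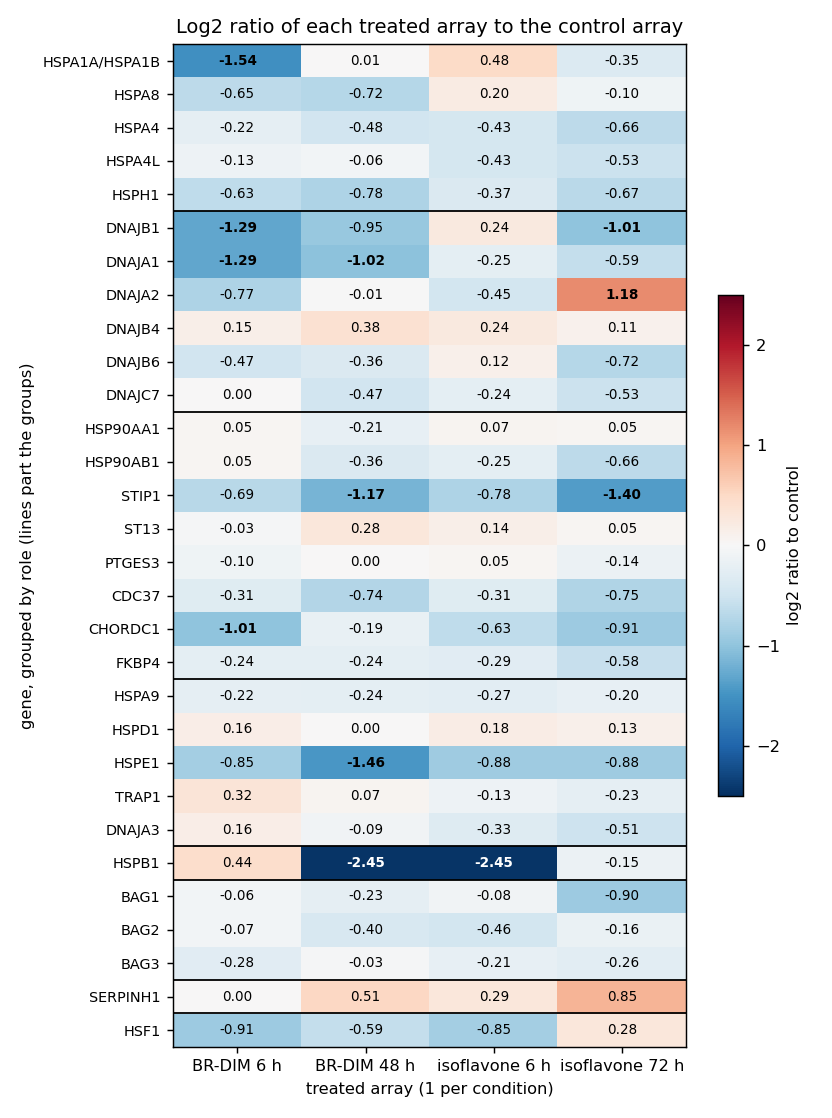
Log2 ratio to the control (colour and printed value) of each measured unit (rows, by role) on each treated array (columns), 1 array per condition, with ratios of 2-fold or more in bold. HSPB1 reaches -2.45 after 48 h of BR-DIM and after 6 h of isoflavone, and HSPA1A/HSPA1B -1.54 on BR-DIM 6 h.

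HSF1 binds DNA as a trimer at heat shock elements, arrays of the unit GAA and its complement TTC that alternate with a spacing of NN. The 250 bases before each start in RefSeq's promoters (GRCh38.p14) were searched for the pairs GAANNTTC and TTCNNGAA, each of which reads the same on both strands, and for triplets, in which a pair of each kind shares its middle unit. A pair stood before 14.0% of 27305 genes and a triplet before 0.557%. Of 28 measured chaperone genes with a promoter in the table, 15 had a pair (53.6%) and 7 a triplet (25.0%). Among the 9 genes that were at least 2-fold changed on a treated array, 6 had a pair and 1 a triplet; among the 19 others with a promoter, 9 had a pair and 6 a triplet. A match describes these letters only. The stretches below are shown because they lie before the genes that the results turn on, with every pair of the stretch in capitals, 5′ to 3′ on the gene's strand. For CHORDC1 and HSPA8 they hold 5 of 6 and 2 of 4 pairs of the window. The first set belongs to genes at least 2-fold lower on a treated array.
HSPA1A (chr6:31815422-31815459, plus strand): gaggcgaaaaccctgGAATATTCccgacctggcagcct
HSPA1B (chr6:31827618-31827655, plus strand): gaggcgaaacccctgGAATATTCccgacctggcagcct
DNAJB1 (chr19:14518422-14518489, minus strand): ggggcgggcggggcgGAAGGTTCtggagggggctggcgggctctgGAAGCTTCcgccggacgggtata
DNAJA1 (chr9:33025060-33025097, plus strand): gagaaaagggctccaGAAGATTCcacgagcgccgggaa
CHORDC1 (chr11:90223050-90223124, minus strand): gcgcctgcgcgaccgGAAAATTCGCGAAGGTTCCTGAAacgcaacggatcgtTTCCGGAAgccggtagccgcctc
HSPB1 (chr7:76302476-76302513, plus strand): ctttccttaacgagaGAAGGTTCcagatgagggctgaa
The second set, chosen after the values were seen, belongs to genes that did not pass 2-fold on any treated array by the probe set used.
HSPA8 (chr11:123062164-123062206, minus strand): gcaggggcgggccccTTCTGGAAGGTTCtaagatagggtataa
HSP90AA1 (chr14:102087090-102087147, minus strand): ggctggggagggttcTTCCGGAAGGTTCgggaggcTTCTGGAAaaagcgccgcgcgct
HSP90AB1 (chr6:44247763-44247858, plus strand): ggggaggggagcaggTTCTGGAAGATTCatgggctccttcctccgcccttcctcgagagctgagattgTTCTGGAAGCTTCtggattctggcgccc
HSPD1 (chr2:197500053-197500090, minus strand): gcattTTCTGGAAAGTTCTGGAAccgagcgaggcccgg

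HSPA1A and HSPA1B carry the same pair, 106 and 105 bases before their starts. DNAJB1 has 2 pairs, at 77 and 47 bases before 1 of its starts. CHORDC1 had the most of the genes printed, with 6 pairs and 3 triplets in its window. STIP1, HSPE1 and DNAJA2, which also passed 2-fold, had 0 pairs in theirs. HSPE1 and HSPD1 lie head to head, and the 3 overlapping pairs printed for HSPD1 end 294 bases before the HSPE1 start, just outside the HSPE1 window. So pairs stood before genes that were lower and before genes that were not.

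HSPA1A and HSPA1B, the HSP70 proteins that heat and proteotoxic stress induce, gave the largest change of the HSP70 group. Their brightest probe set had signals of 9108 (6 h) and 26655 (48 h) with BR-DIM, 37106 (6 h) and 20826 (72 h) with isoflavone, and 26562 in the control. Signals of each gene below are given in this order of times. The signal was therefore 2.92-fold lower on BR-DIM 6 h than in the control (log2 ratio -1.54), and it was the lowest of the 5 arrays there, while isoflavone 6 h was the highest (0.48). At 48 h of BR-DIM the log2 ratio was 0.01, and at 72 h of isoflavone -0.35.

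The other probe sets of HSPA1A/HSPA1B gave the same order at 6 h and lower values later. One, also listed for HSPA1L, had BR-DIM log2 ratios of -2.40 and -0.68 and isoflavone ones of 0.35 and -0.96. The third had -2.12 and -0.74 for BR-DIM, then 0.26 and -0.93 for isoflavone. All 3 were more than 2-fold lower on BR-DIM 6 h and above the control on isoflavone 6 h. On BR-DIM 48 h the brightest one was level with the control while the other two were below it, so the probe sets differed there.

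HSPA8, the constitutive HSP70 called HSC70, moved less and in the same order at 6 h. Its probe sets, which the gene table also lists under the snoRNAs hosted in its introns, were taken as HSPA8. The one used read 22190.5 and 21155 with BR-DIM, 39924 and 32622 with isoflavone, and 34871 in the control. Both BR-DIM arrays were the lowest (log2 ratios -0.65 and -0.72), under 2-fold, and all 4 probe sets lay between -0.81 and -0.61 there. On isoflavone 6 h they lay between 0.15 and 0.29.

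The HSP110 relatives of HSP70, which act as its nucleotide exchange factors, were below the control on every treated array by the probe sets used, each by less than 2-fold. HSPH1 had signals of 4205 and 3789.8 with BR-DIM, 5027 and 4073 with isoflavone, and 6500.0 in the control. Its log2 ratios were -0.63, -0.78, -0.37 and -0.67, and a second probe set gave -0.80, -1.08, -0.46 and -1.47, past 2-fold at the later time of each compound. HSPA4 ran from -0.22 on BR-DIM 6 h to -0.66 on isoflavone 72 h, where another of its probe sets read -1.47 and a dim one 0.20. HSPA4L, a testis-rich member, ran from -0.06 on BR-DIM 48 h to -0.53 on isoflavone 72 h. Its second probe set lay above the control on 3 of 4 arrays (0.08, 0.44 and 0.31) and at -0.96 on isoflavone 6 h. By the probe sets used, all 5 units of the HSP70 and HSP110 group lay below the control after 6 h of BR-DIM and after 72 h of isoflavone, while 4 did after 48 h of BR-DIM and 3 after 6 h of isoflavone.

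**Figure D3:**
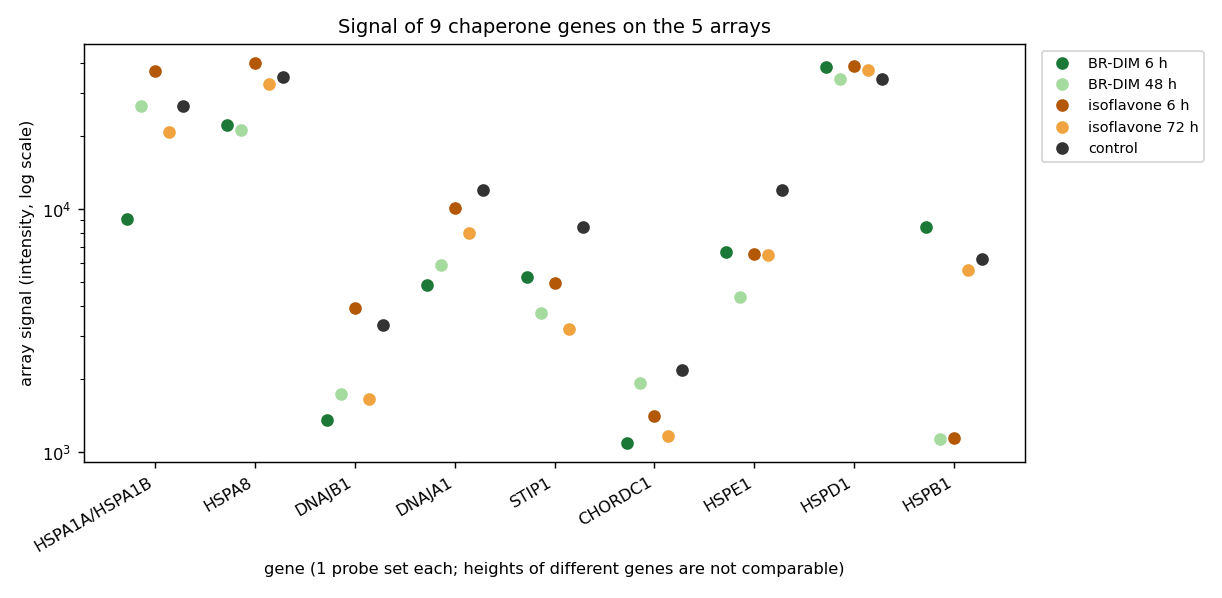
Array signal (vertical axis, intensity on a log scale) of 9 chaperone genes, 1 point per array, with the treated arrays left of the control. HSPA1A/HSPA1B is lowest on BR-DIM 6 h (9108), and HSPB1 is low after 48 h of BR-DIM (1136) and after 6 h of isoflavone (1140.3), against 6227 in the control.

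Among J-domain proteins, DNAJB1 and DNAJA1 were lower with BR-DIM. DNAJB1, the class B partner of HSP70 that is strongly inducible by heat, had signals of 1361 and 1729 with BR-DIM, 3938 and 1654 with isoflavone, and 3331 in the control. It was 2.45-fold lower on BR-DIM 6 h (log2 ratio -1.29) and 2.01-fold lower on isoflavone 72 h (-1.01), just past the threshold. On BR-DIM 48 h it was -0.95, and on isoflavone 6 h it was 0.24. A second probe set gave BR-DIM ratios of -1.52 and -0.96 and isoflavone ratios of -0.16 and -0.58, so the call on isoflavone 72 h was made by 1 probe set of 2.

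DNAJA1, a farnesylated class A J protein, was the one unit at least 2-fold lower at both BR-DIM times. Its signals were 4894 and 5907 with BR-DIM, 10083 and 7960.1 with isoflavone, and 11981 in the control, so every treated array was below the control. The log2 ratios were -1.29 and -1.02 for BR-DIM, then -0.25 and -0.59 for isoflavone. The 48 h value was close to the threshold, at -0.99 with quantile normalization and also under 2-fold without _s_at and _x_at probe sets. A second probe set had signals of 1989 and 2558 with BR-DIM, 5201 and 4469 with isoflavone, and 5116 in the control, so it was low with BR-DIM and near the control after 6 h of isoflavone.

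DNAJA2, its close relative, was the one unit at least 2-fold higher than the control on any array. The signals were 1325 and 2251 with BR-DIM, 1657 and 5132 with isoflavone, and 2267 in the control, which makes isoflavone 72 h 2.26-fold higher (log2 ratio 1.18). The second DNAJA2 probe set read 0.10 there, and between -0.41 and 0.15 on the other arrays, so the rise was seen by 1 probe set of 2.

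The remaining J proteins stayed within 2-fold. DNAJB6, which restrains aggregation of polyglutamine proteins, had 576 and 622 with BR-DIM, 871 and 486 with isoflavone, and 799 in the control, with its lowest log2 ratio, -0.72, on isoflavone 72 h. DNAJC7, which binds both HSP70 and HSP90, ran from 0.00 on BR-DIM 6 h to -0.53 on isoflavone 72 h, where a dimmer probe set read 0.58. DNAJB4 was above the control on all 4 treated arrays by the probe set used, by log2 ratios from 0.11 to 0.38, while a second one was -0.19 on isoflavone 72 h.

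**Figure D4:**
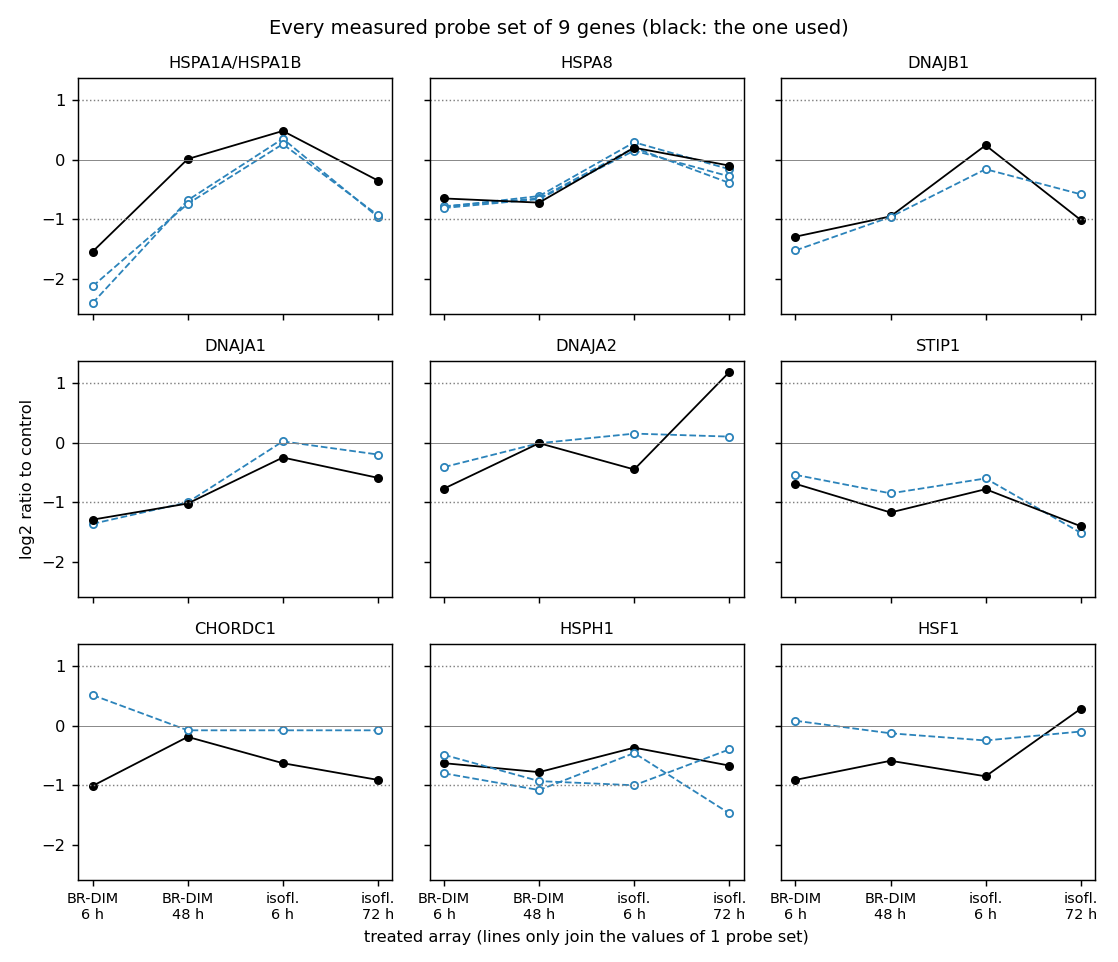
Log2 ratio to the control (vertical axis) of every measured probe set of 9 genes on the 4 treated arrays, with the probe set used in black and the others in blue; dotted lines mark 2-fold. All 3 probe sets of HSPA1A/HSPA1B lie below -1.5 on BR-DIM 6 h, while those of DNAJA2, CHORDC1 and HSF1 part from each other.

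By the probe sets used, neither HSP90 gene passed 2-fold, while 2 of their cochaperones did. HSP90AA1, the inducible cytosolic HSP90, had signals of 40446 and 33874 with BR-DIM, 40970.2 and 40467 with isoflavone, and 39140.5 in the control. Its 5 arrays differed by at most 1.21-fold by this probe set. Of its 4 probe sets, 2 lay below the control on every treated array, the one from -0.70 to -0.24 and the other from -0.53 to -0.09. HSP90AB1, the constitutive form, had 22229.9 and 16763 with BR-DIM, 18071 and 13617 with isoflavone, and 21525 in the control. It was lowest on isoflavone 72 h (log2 ratio -0.66), where another of its probe sets read -1.02.

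STIP1, also called HOP, links HSP70 to HSP90 and passes clients between them. Its signals were 5262 and 3753 with BR-DIM, 4947 and 3214 with isoflavone, and 8467 in the control, so all 4 treated arrays were below the control and the later time of each compound was below the earlier one. It was 2.26-fold lower on BR-DIM 48 h (log2 ratio -1.17) and 2.63-fold lower on isoflavone 72 h (-1.40), and at 6 h it was -0.69 with BR-DIM and -0.78 with isoflavone. A second probe set gave -0.85 after 48 h of BR-DIM and -1.51 after 72 h of isoflavone.

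CHORDC1, a zinc-binding partner of HSP90, had signals of 1088 and 1923 with BR-DIM, 1414 and 1168 with isoflavone, and 2188 in the control. It was 2.01-fold lower on BR-DIM 6 h (log2 ratio -1.01) and -0.91 on isoflavone 72 h, the unit nearest to the threshold from the other side there. A dim probe set of CHORDC1 went the other way on BR-DIM 6 h (0.51). CDC37, which brings kinases to HSP90, was below the control on every treated array, from -0.31 on both 6 h arrays to -0.74 after 48 h of BR-DIM and -0.75 after 72 h of isoflavone. FKBP4, the immunophilin FKBP52 that joins steroid receptor complexes, ran from -0.24 on both BR-DIM arrays to -0.58 on isoflavone 72 h. PTGES3, the cochaperone p23, differed by at most 1.14-fold over the 5 arrays, and ST13, the HSP70 binding protein HIP, by 1.24-fold by the probe set used. Another ST13 probe set read 0.56 on isoflavone 72 h, and a dimmer one -0.39 on BR-DIM 6 h. The median of the 8 HSP90 units lay at -0.17 and -0.22 for BR-DIM and at -0.27 and -0.62 for isoflavone, lowest at 72 h.

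In mitochondria, HSPE1 was lower than the control on every treated array, while its partner HSPD1 lay near it by the probe set used. HSPE1 encodes HSP10, the lid of the HSP60 folding chamber that HSPD1 encodes. The HSPE1 signals were 6659 and 4360.0 with BR-DIM, 6544 and 6504 with isoflavone, and 12007 in the control. HSPE1 was 2.75-fold lower on BR-DIM 48 h (log2 ratio -1.46) and between -0.88 and -0.85 on the other 3 arrays, and it had 1 probe set. HSPD1 had signals of 38364 and 34325 with BR-DIM, 38779 and 37494 with isoflavone, and 34347 in the control, a range of 1.13-fold. A second bright HSPD1 probe set lay below the control on 3 of 4 arrays, at -0.46 on BR-DIM 48 h and at -0.34 and -0.31 with isoflavone, and at 0.01 on BR-DIM 6 h. The level HSPD1 signal was thus seen by 1 of the bright probe sets.

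The other mitochondrial chaperones stayed within 2-fold. HSPA9, the mitochondrial HSP70 mortalin, ran from -0.27 to -0.20 by the probe set used. A second bright HSPA9 probe set had BR-DIM ratios of -0.02 and 0.01 and isoflavone ratios of -0.37 and 0.20. TRAP1, the mitochondrial HSP90, had 7670.3 and 6453 with BR-DIM, 5635 and 5226 with isoflavone, and 6147 in the control, so it was above the control with BR-DIM and below it with isoflavone. DNAJA3, the mitochondrial J protein, had BR-DIM ratios of 0.16 and -0.09 and isoflavone ratios of -0.33 and -0.51.

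HSPB1, the small heat shock protein HSP27, had the widest span of the 30 units over the 5 arrays, 7.44-fold. Its signals were 8454 and 1136 with BR-DIM, 1140.3 and 5631 with isoflavone, and 6227 in the control. It was 5.48-fold lower on BR-DIM 48 h and 5.46-fold lower on isoflavone 6 h (log2 ratio -2.45 on each), but 0.44 after 6 h of BR-DIM and -0.15 after 72 h of isoflavone. The low arrays were the ones low in luminal and epithelial genes, of which 13 of the 14 measured were at least 2-fold lower after 48 h of BR-DIM, and 13 of 13 after 6 h of isoflavone. CDH1, which encodes E-cadherin, read 99.5 and 85.9 on those arrays, against 2195 in the control, and KRT18 1033 and 461, against 2738. Their part in the HSPB1 result was not tested, and HSPB1 had 1 probe set. In bulk RNA, fewer cells that express a gene and less RNA per cell cannot be told apart. CRYAB read between 12.6 (isoflavone 72 h) and 96.8 (BR-DIM 6 h), all under the floor.

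The BAG proteins, which release the nucleotide and the client from HSP70, lay below the control on all treated arrays and within 2-fold by the probe sets used. BAG1, which also binds nuclear receptors, had 913 and 808 with BR-DIM, 902 and 508 with isoflavone, and 950.4 in the control. Its log2 ratio on isoflavone 72 h was -0.90, and its other probe sets read -0.79 and -1.40 there. BAG3, itself heat-inducible and a link to selective autophagy, differed by at most 1.21-fold over the 5 arrays, and BAG2, which inhibits the ubiquitin ligase CHIP, by 1.38-fold. One dimmer BAG2 probe set read 0.29 and 0.84 with BR-DIM and was under the floor in both isoflavone comparisons. Another had BR-DIM ratios of 0.03 and -0.59 and isoflavone ratios of -0.12 and -0.13.

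SERPINH1, the collagen chaperone HSP47 of the endoplasmic reticulum, went the other way. Its signals were 1039.9 and 1487 with BR-DIM, 1269.9 and 1877 with isoflavone, and 1042 in the control, with a log2 ratio of 0.85 on isoflavone 72 h, under 2-fold. HSF1 had 261 and 324 with BR-DIM, 271 and 593 with isoflavone, and 489.9 in the control, or -0.91, -0.59, -0.85 and 0.28. Its second probe set lay between -0.25 and 0.08, so the lower HSF1 signals were seen by 1 probe set of 2.

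The compounds shared 1 time and stated dose, 6 h at 25 µM, and this comparison leaves the control array out. With BR-DIM, 3 of 30 units were at least 2-fold lower than with isoflavone (10.0%, against 1.12% of 13077 genes) and 1 was higher (3.33%, against 7.00%). HSPA1A/HSPA1B was 4.07-fold lower with BR-DIM (9108 against 37106 with isoflavone), DNAJB1 2.89-fold lower (1361 against 3938) and DNAJA1 2.06-fold lower (4894 against 10083). HSPA8 and DNAJB6 followed at 1.80-fold and 1.51-fold by the probe sets used. The other HSPA8 probe sets had log2 ratios from -1.09, past 2-fold, to -0.96. HSPB1 was 7.41-fold higher with BR-DIM (8454 against 1140.3). By the probe sets used, HSPE1, STIP1, BAG1, CDC37 and HSP90AA1 differed by at most 1.06-fold between these arrays. Other probe sets of BAG1 read -0.38 and -0.65, and those of HSP90AA1 from -0.29 to -0.07. Dimmer ones of HSPA4L (1.04) and DNAJC7 (1.15) were past 2-fold higher with BR-DIM. The median over all 30 was -0.02, against 0.06 for all genes. The isoflavone 6 h array is one of those low in luminal genes, whose part in these differences was not tested.

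**Figure D5:**
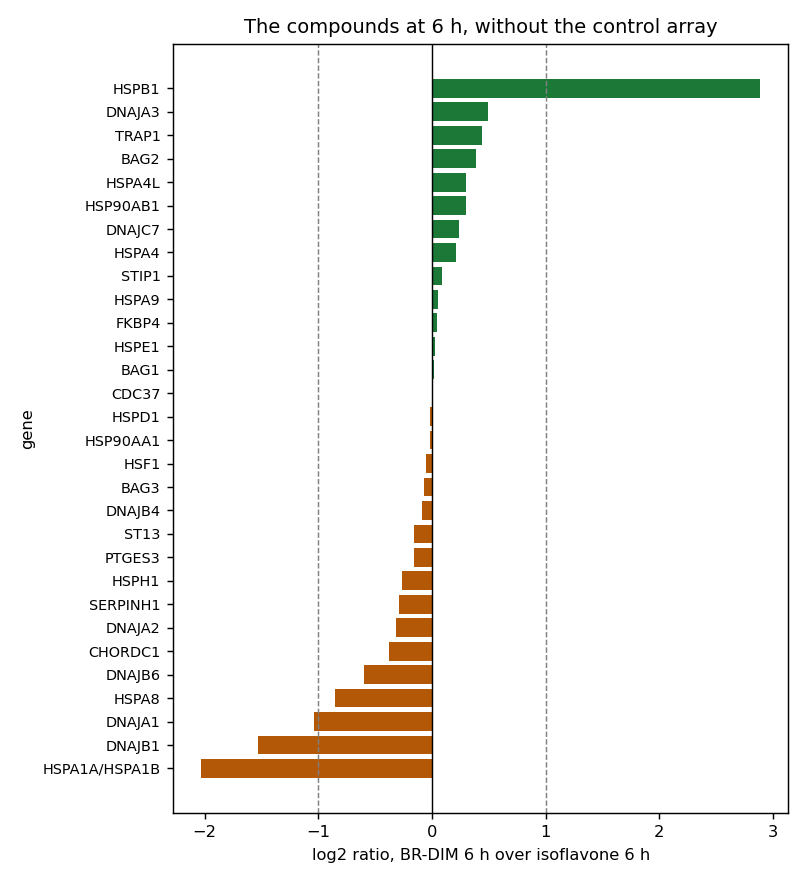
Log2 ratio of BR-DIM 6 h over isoflavone 6 h (horizontal axis) for the 30 measured units, sorted, with dashed lines at 2-fold; bars to the right are higher with BR-DIM. HSPA1A/HSPA1B (-2.03), DNAJB1 (-1.53) and DNAJA1 (-1.04) lie past 2-fold on the left and HSPB1 (2.89) on the right.

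Between the times of 1 compound, few units changed by the probe sets used. On BR-DIM 48 h against BR-DIM 6 h, HSPA1A/HSPA1B was 2.93-fold higher at 48 h (26655 against 9108 at 6 h) and HSPB1 7.44-fold lower (1136 against 8454). That is 1 of 30 higher and 1 of 30 lower (3.33% each), against 1.84% and 3.74% of 13385 genes. On isoflavone 72 h against isoflavone 6 h, 3 were at least 2-fold higher (10.0%, against 7.77% of 12660 genes) and 1 lower (3.33%, against 1.89%). The higher ones were HSPB1 (4.94-fold), DNAJA2 (3.10-fold) and HSF1 (2.19-fold), the last 2 by 1 probe set of 2, and the lower one was DNAJB1 (2.38-fold, 1654 at 72 h against 3938 at 6 h). DNAJB1 too passed 2-fold by 1 probe set of 2, since its second one read -0.43 and averaged probe sets gave -0.86. HSPA1A/HSPA1B read -0.83 by the probe set used, under 2-fold, while its other probe sets read -1.31 and -1.20. Dimmer probe sets of HSPH1 (-1.01), DNAJB4 (-1.02), BAG1 (-1.25) and HSPD1 (-1.27) were past 2-fold lower as well. Counting any size of difference by the probe sets used, 24 of 30 units lay lower at 72 h than at 6 h of isoflavone (80.0%, against 46.8% of all genes), among them HSP90AA1 by only -0.02 on the log2 scale. Some other probe sets of HSPA4L, HSPA4, HSPH1, DNAJC7, ST13 and HSPD1 lay higher at 72 h. The largest differences were 1.28 for HSPA4L, 1.05 for DNAJC7 and 0.75 for HSPA4, and the smallest was 0.03 for HSPD1. At 48 h against 6 h of BR-DIM 16 of 30 units lay lower (53.3%, against 50.8% of all genes). These comparisons leave the control out as well.

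Further chaperone genes were counted in the same way. Of 29 other HSP70, J-domain and small heat shock genes measured after 6 h of BR-DIM 1 was at least 2-fold lower, beside 0.814% of all genes, and of 28 after 48 h of it 2 were, beside 3.87% of all genes. Of 28 and 29 measured after 6 h and 72 h of isoflavone 0 were lower, beside 3.82% and 2.06% of all genes. On no treated array was one higher, beside 1.18% to 5.33% of all genes. HSPA2, a testis HSP70, was at 56.8 on BR-DIM 6 h, under the floor, against 225 in the control (log2 ratio -1.21, a bound). On BR-DIM 48 h the lower ones were DNAJC30 (339.5 against 752 in the control, -1.15) and DNAJC11 (602 against 1288, -1.10), which are both J proteins of mitochondria. Of 17 further cochaperones and regulators and 12 subunits of the TRiC chaperonin and prefoldin, 0 were past 2-fold on any treated array, with list medians from -0.34 to -0.07. Over all genes 0.814% to 3.87% were lower and 1.18% to 5.33% higher on these arrays, so 0 in lists this small is close to those shares. Of 14 genes of mitochondrial import, nucleotide exchange and proteolysis, 1 was past 2-fold. That was GRPEL1, the nucleotide exchange factor of HSPA9, at 2082 on isoflavone 72 h against 4527 in the control (-1.12). On that array 2.06% of all genes were at least 2-fold lower.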

How the data were processed

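The authors hybridised 1 Human Genome U133 Plus 2.0 array per condition and deposited linear signal intensity values per probe set, made with MAS5 per the submitters' processing notes and with near-equal trimmed means on the 5 arrays. Software version, scaling target and detection calls are not given in the sources used here, and the number of arrays limits the precision. Of 54613 probe sets, 41091 carried 1 gene symbol, 1801 several and 11721 were not named. Probe sets with several symbols were left out except those of HSPA1A/HSPA1B and HSPA8. Platform symbols were updated by Entrez identifier through RefSeq. For each gene the probe set brightest on average over the 5 arrays was used. Signals under 97.1 were raised to that floor, and a comparison took in genes that exceeded this floor on at least 1 of its arrays. Log2 ratios were taken for 7 comparisons, of which 3 left the control out. No test was run. Levels of different genes were not compared. Members and lists were chosen with earlier results of these data known. The rule for names was to account for each member, to give signals where it was 2-fold changed or extreme in its group, and to name up to 4 genes past 2-fold in each further list. Alternatives were quantile normalization, median ratio scaling, omission of the floor, a higher floor of 472 (the 75th percentile), the floor as a pseudocount, averaged probe sets, no _s_at or _x_at probe sets and a 1.5-fold rule. The procedure was tested on simulated data with an assumed noise, which does not measure the error of these arrays. Python 3.11.15, numpy 2.4.6, pandas 2.3.3, scipy 1.17.1 and matplotlib 3.10.9 were used.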

Additional observations from a re-analysis of the deposited data

Results flagged for a closer look

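At 6 h, 3 units lay on opposite sides of the control with the compounds and at least 2-fold apart between them. The log2 ratio of BR-DIM 6 h over isoflavone 6 h was -2.03 for HSPA1A/HSPA1B, -1.53 for DNAJB1 and 2.89 for HSPB1. For DNAJB1 this held by 1 probe set of 2, since the second lay below the control with both compounds (-1.52 with BR-DIM and -0.16 with isoflavone). With 1 array per compound the difference was not tested.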

How the results depend on the processing

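The 22 ratios past 2-fold were recomputed under the 7 alternatives in signals or probe sets, which gave 142 values, several for each ratio. Of these values 127 stayed past 2-fold, 14 fell under it and 1 turned. Omission of the floor could not change any of the 22, since all their signals lay above it. Averaged probe sets kept 16 of 22, and without _s_at and _x_at probe sets only 10 could be computed, of which 8 stayed. The one that turned was CHORDC1 on BR-DIM 6 h, at 0.51 without _s_at and _x_at probe sets, which leaves 19 units. That setting also left 2 lower units after 6 h of BR-DIM, 0 after 48 h of it and 0 after 72 h of isoflavone, 0 lower on BR-DIM 48 h against BR-DIM 6 h, and 0 higher on BR-DIM 6 h against isoflavone 6 h. Without a floor, which lets CRYAB count, 1 unit was higher after 6 h of BR-DIM, 2 lower after 6 h of isoflavone, and 2 higher on BR-DIM 6 h against isoflavone 6 h. With the floor as a pseudocount isoflavone 72 h had 1 lower unit. With averaged probe sets it had 1 lower and 0 higher, and 1 higher against isoflavone 6 h. By the 1.5-fold rule, 10 and 9 units were lower after 6 h and 48 h of BR-DIM, 5 and 11 after 6 h and 72 h of isoflavone, and 2 higher on isoflavone 72 h. The same rule gave 2 lower and 3 higher on BR-DIM 48 h against BR-DIM 6 h, 5 lower on isoflavone 72 h against isoflavone 6 h, and 5 lower on BR-DIM 6 h against isoflavone 6 h. Shares of all genes by the 1.5-fold rule were not computed, so these counts have no background beside them. Without HSPB1, an alternative chosen after seeing the data, isoflavone 6 h had 0 lower units. The median on BR-DIM 6 h against isoflavone 6 h was 0.01 with quantile normalization. The median ratio to the control stayed below 0 on all 4 treated arrays under the 7 alternatives, from -0.26 to -0.16 after 6 h of BR-DIM and from -0.51 to -0.23 after 72 h of isoflavone. The HSPA1A/HSPA1B ratio on BR-DIM 6 h ran from -1.89 to -1.53 over all settings in which it was computed. With 1 array per condition none could be left out and no paired analysis was possible, so array-to-array error is unknown.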
